A study of Bos grunniens and Bos grunniens x Bos taurus with 12 samples.

Results

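The testis of adult yaks was compared with that of young yaks by ribosome profiling, in which the short RNA fragments covered by translating ribosomes are sequenced and counted per gene. The comparison used 6 of the 12 libraries of the study, chosen by the age in their labels, with 3 libraries from male yaks (Bos grunniens) of 6 months, which the labels call the juvenile stage, and 3 from male yaks of 4 years, called sexual maturity. All 6 were whole testis with no treatment named, 1 library taken per animal, so p-values measure the spread between these libraries. The other libraries came from 3 yaks of 18 months, at puberty by the labels, and 3 cattle-yak hybrids of 4 years. The labels give castration as the source of the testes, whereas the methods of the study describe euthanasia for yaks of 4 years, so collection and age cannot be told apart if it differed.

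Before puberty the seminiferous tubules hold Sertoli cells and early germ cells, and after it the germ line runs through mitotic spermatogonia, meiotic spermatocytes, round spermatids and elongating spermatids in waves. Spermatids pack their DNA with transition proteins and then protamines, build an acrosome and a flagellum, and store many mRNAs for later translation. Sertoli cells support the germ cells inside the tubule, peritubular myoid cells and a basement membrane surround it, and Leydig cells between the tubules make androgens. In whole tissue a lower value can come from fewer cells of a type or from less RNA per cell. Because counts are relative to the library, it can also come from a larger share of counts on genes of other cells. These cannot be told apart here, nor can mRNA abundance and ribosome loading, since only footprints were counted.

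The libraries of 6 months held 25816963 to 37167651 counts and those of 4 years 16304058 to 17862516, so the young testis was sequenced more deeply. A count was found for 16783 to 17356 genes at 6 months and for 18202 to 18279 at 4 years. Pearson correlations of log expression were 0.968 to 0.979 within the young group, 0.972 to 0.977 within the adult group and 0.573 to 0.595 between them, which is a description of libraries that share a gene set. The label testis fitted the data at both ages: INSL3, the hormone of Leydig cells, had FPKM values (footprints per kilobase of coding length and per library total, a level that corrects for gene length and library total) of 15927, 19729.7 and 23082 at 6 months and 16627, 10901 and 10227 at 4 years.

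Of 16133 genes with enough counts to test, 5009 were higher at 4 years (31.0%) and 3985 were lower (24.7%). These are differentially translated genes (DTGs), with a Benjamini-Hochberg adjusted p under 0.05 in the quasi-likelihood test of edgeR and a change of at least 1 on the log2 scale, and every count of genes called higher or lower below is to be read against these shares. Values of the 3 libraries of each age did not overlap for 4951 of the higher and 3923 of the lower DTGs. Among all 16133 tested genes, called or not, 6520 with a positive and 5982 with a negative change did not overlap. Lack of overlap was thus common, and it adds no support to the calls. Log2 fold changes are 4 years minus 6 months on counts scaled by the trimmed mean of M-values (TMM), with a median of 0.08 over all tested genes. Scaling by library totals alone moved that median up by 0.57 and gave 6596 higher and 2493 lower DTGs, or 72.6% higher among the calls in place of 55.7%. FPKM values are per library total, so their ratios tend to lie above the edgeR fold changes. In what follows, values in brackets after FPKM are log2 fold changes ± SE, a rise on the log2 scale is such a change, and FPKM values given as a pair are the means ± SD of the 3 libraries of 6 months and then the 3 of 4 years.

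Rises were steeper than falls. Among the DTGs, 1331 were over 32-fold higher at 4 years against 127 over 32-fold lower, and 377 of the higher DTGs had no count in any library of 6 months against 11 of the lower ones with none at 4 years. Of all 20965 genes, tested or not, 2730 had no count at 6 months and 1862 had none at 4 years, some of them at both ages. Genes at 0 at 1 age were tested only through their counts at the other. For a gene with no count at 1 age, the fold is a lower bound, set against 3 counts in each library of that age, and such floors and the counting intervals below cover counting error only. The translated output was also spread over more genes in the adult: 146, 238 and 240 genes held 50% of the counts in the libraries of 6 months, against 781, 830 and 866 at 4 years. Genes called higher took 3.20% to 3.84% of the counts at 6 months and 33.4% to 34.7% at 4 years, whereas genes called lower went from 54.6% to 64.0% down to 18.0% to 19.2%. These ranges follow from the calls and are a description.

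**Figure D1:**
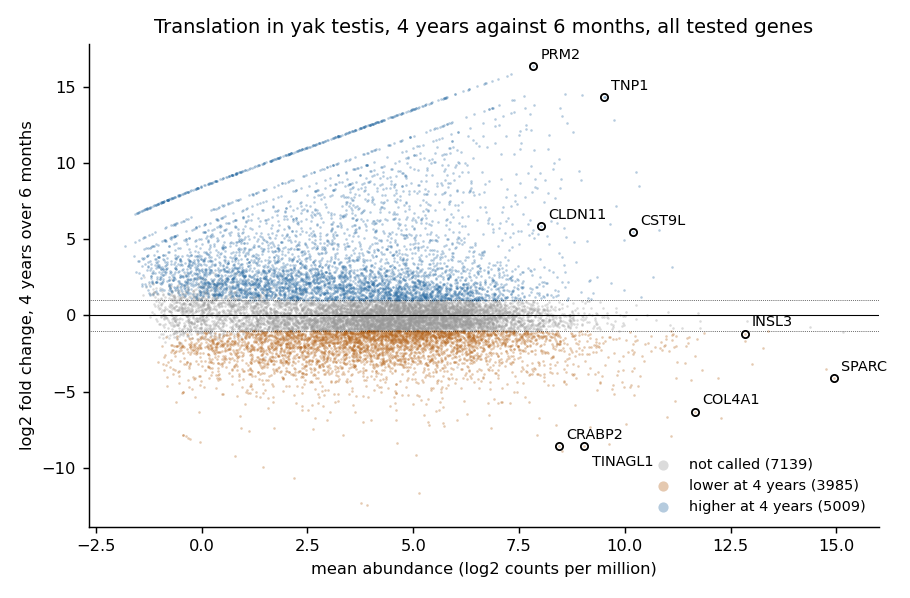
Log2 fold change (4 years minus 6 months, edgeR with TMM scaling) against mean log2 CPM for the 16133 tested genes, with the 5009 higher and 3985 lower DTGs coloured and the other genes in grey. The higher DTGs reach further from 0 than the lower ones, and the straight streaks along the top are genes with 0 or a few counts in the libraries of 6 months.

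At 6 months TIMP2 and SPARC had the highest levels of all genes called lower. TIMP2, an inhibitor of metalloproteinases, had FPKM values of 62049, 52662 and 45529 at 6 months and 5839.9, 8149.9 and 7089 at 4 years, with a log2 fold change of -3.52 ± 0.36 (SE, adjusted p = 2.7e-05). SPARC, a matrix protein that binds collagen and calcium, had 65635, 40758 and 39498 at 6 months and 3550.2, 4362 and 4805 at 4 years, a change of -4.11 ± 0.42 (adjusted p = 2.7e-05). Each of these genes alone took 3.58% to 4.81% and 3.89% to 6.46% of all counts at 6 months, against 0.455% to 0.641% and 0.354% to 0.477% at 4 years.

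Other abundant genes of the young testis fell too. APOA1, the main apolipoprotein of high-density lipoprotein, had FPKM values of 17544, 14451 and 12162 at 6 months and 2226, 3176 and 1856 at 4 years (log2 fold change -3.20 ± 0.34), and MGP, which restrains calcification, had 4562, 5229 and 4777 at 6 months and 1506, 1559.7 and 1003 at 4 years (-2.41 ± 0.23). SOD3, the extracellular superoxide dismutase, showed a far steeper fall, from 13262, 10124 and 5811 to 139.7, 118 and 145 (-6.71 ± 0.45). PTMA, a small acidic nuclear protein, went from 3177, 3909 and 4509 to 1273, 1389 and 1333 (-2.10 ± 0.20). For 3 abundant genes the call was lost with library totals, and for HSP90B1 and PPIB also with DESeq2 and in the fit blocked by replicate number. These 2 calls rested on single libraries too. The log2 fold change of HSP90B1 was -0.65 without replicate 1 of 6 months, -0.96 without replicate 1 of 4 years and -0.97 without replicate 2 of 4 years, and that of PPIB was -0.83 without replicate 1 of 6 months, -0.96 without replicate 1 of 4 years and -0.96 without replicate 3 of 4 years. With library totals the log2 fold change of CST3, a secreted protease inhibitor, went from -1.36 to -0.77, that of HSP90B1, a chaperone of the endoplasmic reticulum, from -1.01 to -0.41 and that of PPIB, which helps collagen to fold, from -1.003 to -0.42. Their FPKM values were 7153, 5700.4 and 4525 at 6 months and 2943, 4022 and 3233 at 4 years for CST3, 6263, 4149.8 and 3703 at 6 months and 3164, 3410.3 and 4063 at 4 years for HSP90B1 and 3939, 3527 and 3030.2 at 6 months and 2379, 3003 and 2476 at 4 years for PPIB.

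At 4 years the DTGs with the highest levels included genes of spermatids. TNP1, which replaces histones in condensing spermatids, had FPKM values of 0.2, 0 and 0.66 at 6 months and 9821, 6993 and 10154 at 4 years, from 5 counts in all at 6 months (14.34 ± 0.54, adjusted p = 8.7e-08). DKKL1, a protein of the acrosome, had 90.8, 72.7 and 66.1 at 6 months and 6295, 5910.2 and 4741 at 4 years (5.62 ± 0.30). The groups lay far apart for both genes.

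CLGN, a chaperone of the germ cell endoplasmic reticulum that is needed for sperm surface proteins, had 260.4, 192 and 128 at 6 months and 2591, 2320.3 and 2990.1 at 4 years (3.17 ± 0.34), and CALR3, a calreticulin of the testis, had 2.49, 2.57 and 2.34 at 6 months and 2796, 2416 and 2296 at 4 years (9.42 ± 0.28). CLGN was thus already read at a moderate level in all young testes, while CALR3 was near 0 there. GPX4, a selenoprotein that ends up as a structural protein of the sperm midpiece, rose from 108, 130.4 and 131 to 1411, 1341 and 1244 (2.87 ± 0.16). AARD had 304, 403 and 268 at 6 months and 2949, 3029 and 2245 at 4 years (2.51 ± 0.23) and TMEM190 45.4, 23.8 and 21 at 6 months and 1738, 1953 and 1176 at 4 years (5.15 ± 0.42). TUBA3D, a testis alpha-tubulin, had 5.12, 12.6 and 3.65 at 6 months and 1580.2, 1669 and 1436 at 4 years (7.22 ± 0.50), and the histone genes H3-4 and H2BC12 had 18.8, 40.3 and 16.2 at 6 months and 975.4, 1386 and 1356 at 4 years and 112, 231 and 259 at 6 months and 1048, 1426 and 1142 at 4 years, with changes of 5.06 ± 0.36 and 2.04 ± 0.26. Values of the tubulin and histone genes are uncertain, since near-identical copies can share short footprints.

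Some abundant DTGs carry no gene symbol in the annotation and are known by the description of their protein. A locus described as beta-defensin had FPKM values of 0, 0.19 and 0.12 at 6 months and 4676, 5463 and 3050.1 at 4 years, a ratio of scaled counts of 26403 (95% counting interval 9035 to 128030.2), and another described as eppin, a protease inhibitor on the sperm surface, had 2.16, 3.87 and 2.04 at 6 months and 1971, 2426 and 1667 at 4 years (8.98 ± 0.33). In the opposite direction, a locus described as a phospholipase A2 had 3142, 4103 and 3381 at 6 months and 40.1, 28.7 and 37.5 at 4 years (-7.14 ± 0.26), a lactadherin locus 5499, 3527 and 2603 at 6 months and 257, 465 and 213 at 4 years (-4.27 ± 0.46), and a kallikrein-1 locus 1817, 1828 and 1084 at 6 months and 5.58, 8.11 and 6.25 at 4 years (-8.47 ± 0.37). All of these loci, the beta-defensin locus included, were picked after their values were seen.

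The 5 steepest rises by fitted fold change, among DTGs with a symbol in the files, above-median abundance and no overlap of the groups, were of genes with no count at 6 months. PRM2, which is named from its description and comes later, had a higher fitted value than these. HMGB4, a chromatin protein of spermatids, was at least 2126-fold higher, with FPKM values of 598, 398 and 518 at 4 years, and KLHL10, an adaptor for protein degradation that male fertility requires, was at least 1702-fold higher, with 124, 133 and 149.9. PFN3, a profilin of the spermatid head, reached 502, 443 and 371 (at least 1319-fold). TEX33 and TEX35, named for their testis expression, reached 254, 234 and 217 (at least 1690.0-fold) and 287, 236 and 272 (at least 1195-fold). None of these 5 genes was detected in any young library at this depth.

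The steepest falls were to near 0. PDIA2, a protein disulfide isomerase, had FPKM values of 36, 26.7 and 14.8 at 6 months and 0, 0 and 0.03 at 4 years, a ratio of scaled counts of 4215 (95% counting interval 756 to 166467) from a single count at 4 years. COL9A2, a collagen chain, had 30.1, 29.7 and 17.2 at 6 months and 0.05, 0 and 0.15 at 4 years (-9.16 ± 0.54), and EMID1, a secreted protein with a collagen-like stretch, had 596, 342 and 304 at 6 months and 0.65, 2.1 and 1.22 at 4 years (-8.91 ± 0.55). TINAGL1, a matrix protein of basement membranes, fell from 786, 504 and 482 to 1.29, 2.88 and 2.78 (-8.60 ± 0.45) and CRABP2, which carries retinoic acid in the cell, from 1206, 1209.9 and 1419 to 3.65, 4.27 and 7.15 (-8.57 ± 0.30). In each of these genes every adult value lay under every young one. They were chosen by the same rule as the steepest rises, which asked for no overlap, so this adds no support.

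Genes were then read in 28 lists by cell type and function, of which 761 of 901 members were found by name. The gene lists differed widely in their share of DTGs. Of the tested genes of spermatocytes, round spermatids, elongating spermatids and the axoneme, 97.1%, 97.1%, 97.2% and 97.8% were higher, against 31.0% of all genes, and of the fibrillar matrix and basement membrane genes 76.0% and 80.0% were lower, against 24.7% of all. In the round and elongating spermatid lists, 7 and 12 members had no count at 6 months. These passed the filter through the adult libraries alone and could not have been called lower, so the shares of these lists are partly set by the filter.

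**Figure D2:**
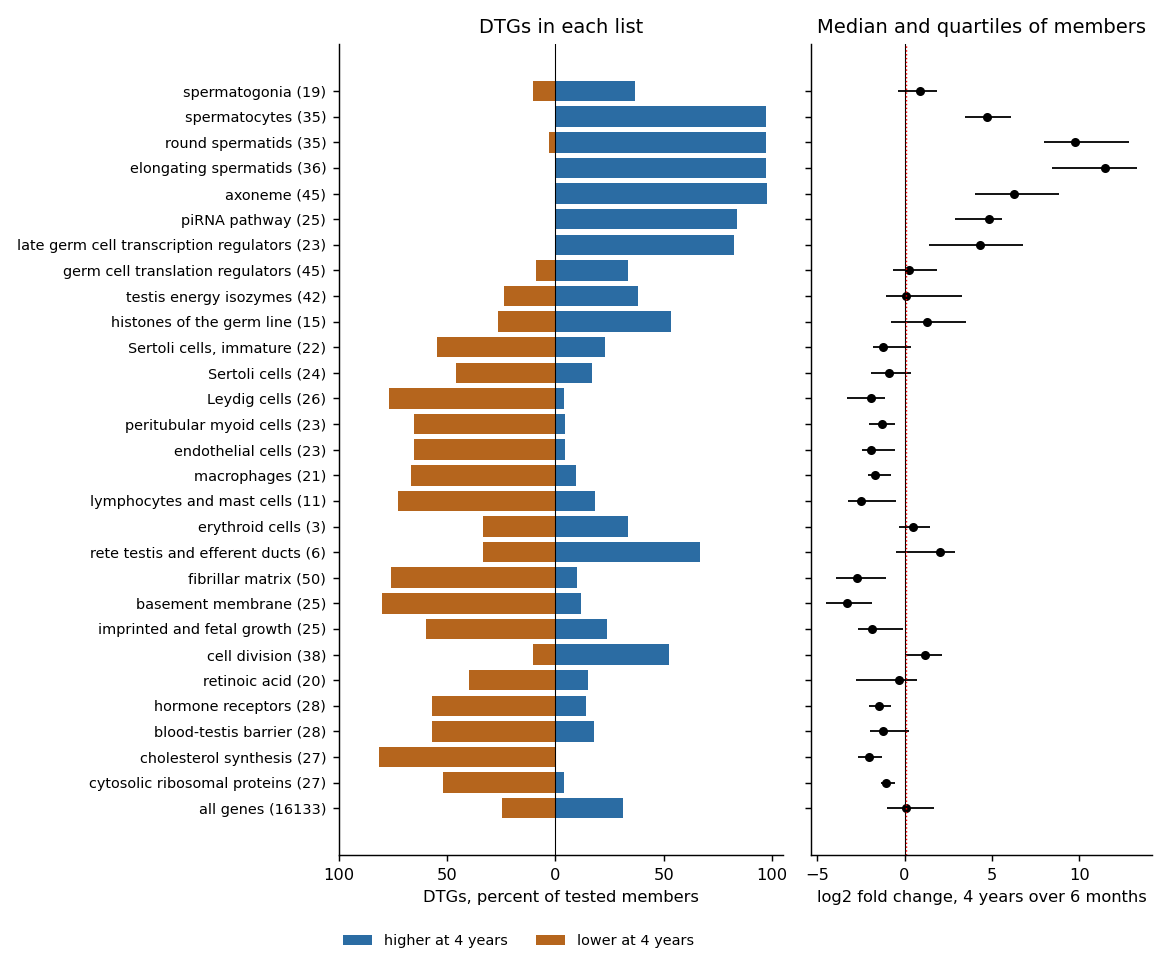
Percent of the tested members of each list called higher or lower at 4 years (left, number tested in brackets) and the median log2 fold change of the list with its quartiles (right), where the red dotted line is the median of all tested genes, 0.08. Elongating and round spermatids have the medians furthest to the right, at 11.45 and 9.76, and the basement membrane list the one furthest to the left, at -3.27.

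Spermatogonial genes moved in both directions. Of 19 tested members, 7 were higher, 2 lower and 10 not called (median 0.90 on the log2 scale), and with library totals 11 were higher. The shares of 36.8% higher and 10.5% lower stand beside 31.0% and 24.7% of all tested genes. Not called were 3 genes often used as markers: ZBTB16, a repressor that keeps stem cells, had FPKM values of 3.36, 3.76 and 3.35 at 6 months and 7.39, 7.87 and 9.44 at 4 years (0.68 ± 0.18), UCHL1, a ubiquitin hydrolase, had 229.8, 303 and 191 at 6 months and 371, 626 and 419 at 4 years (0.36 ± 0.23), and KIT, the receptor of differentiating spermatogonia, had 77.5, 49.7 and 42.9 at 6 months and 47.3, 39.4 and 42.1 at 4 years (-0.999 ± 0.27, adjusted p = 0.0087). With library totals ZBTB16 was called, at 1.247.

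Among the spermatogonial genes that were called, SOHLH2, a factor of differentiating spermatogonia, rose from 0.81, 2.35 and 1.04 to 72, 65.1 and 82.7 (5.34 ± 0.35), and its partner SOHLH1 from a mean FPKM of 0.913 to 13.8 (3.33 ± 0.55). NANOS3, which protects early germ cells, rose on the log2 scale by 4.20 ± 0.57, ID4, a marker of the stem cell pool, by 2.51 ± 0.24 and SALL4, a stem cell factor, by 2.15 ± 0.47. The 2 members that fell were GFRA1, the receptor for the growth factor GDNF on stem cells, at 7.27 ± 2.49 against 2.18 ± 0.973 FPKM (-2.34 ± 0.41), and TSPAN33, a tetraspanin, at 53, 43.2 and 47.3 at 6 months and 8.55, 9.09 and 12 at 4 years (-2.86 ± 0.21). The called members thus held rises for single genes of differentiation and for single stem cell genes, beside a fall of GFRA1. As a list, the share called higher was close to that of all genes.

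Meiotic genes rose almost without exception. Of 35 tested spermatocyte genes, 34 were higher and none was lower, with a median of 4.71, and their summed share of the counts was 0.0281% to 0.0362% at 6 months and 0.391% to 0.414% at 4 years. SYCP1, which spans the synaptonemal complex between paired chromosomes, had FPKM values of 0.29, 1.58 and 0.6 at 6 months and 30.5, 22.4 and 28.4 at 4 years (4.47 ± 0.48), and SYCP3, of its lateral element, had 0.51, 1.84 and 1.09 at 6 months and 78.4, 59.7 and 71.6 at 4 years (5.33 ± 0.36, adjusted p = 2.0e-06). Low levels of both genes were read in all libraries of 6 months.

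The recombination enzymes rose likewise, with mean FPKM of 2.1 ± 1.09 against 94.3 ± 13.1 for DMC1, the meiotic strand-exchange protein (4.90 ± 0.32), and 0.437 ± 0.242 against 10.4 ± 2.44 for SPO11, which cuts the DNA (4.05 ± 0.42). MEIOC, which holds the meiotic program against return to mitosis, had no count at 6 months and 43.8, 40.8 and 56.2 at 4 years, at least 643-fold higher. The meiotic cohesin genes SMC1B, STAG3 and REC8 rose on the log2 scale by 5.74 ± 0.47, 6.25 ± 0.34 and 3.76 ± 0.51, and HSPA2, a chaperone of spermatocytes, rose from 19.9 ± 2.8 to 431 ± 28.9 (3.87 ± 0.18).

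HORMAD1, a protein of unsynapsed chromosome axes, was the member not called: its FPKM values were 123, 138 and 183 at 6 months and 189, 244 and 216 at 4 years (0.12 ± 0.16), close to each other and overlapping between ages in TMM-scaled counts, while its relative HORMAD2 rose from 1.64 ± 0.363 to 81.1 ± 18.9 (5.06 ± 0.25). The smallest called rise was that of MEI4, a partner of DNA break formation, at 0.69, 1.81 and 0.39 at 6 months and 3.44, 3.29 and 3.81 at 4 years (1.296 ± 0.52), which lost its call when some single libraries were left out. TEX11 and TEX12, meiotic proteins, were also well above 0 at 6 months, with means of 17.6 ± 4.95 against 136 ± 12.9 (2.36 ± 0.22) and 5.92 ± 2.79 against 72 ± 13.4 (3.04 ± 0.30).

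**Figure D3:**
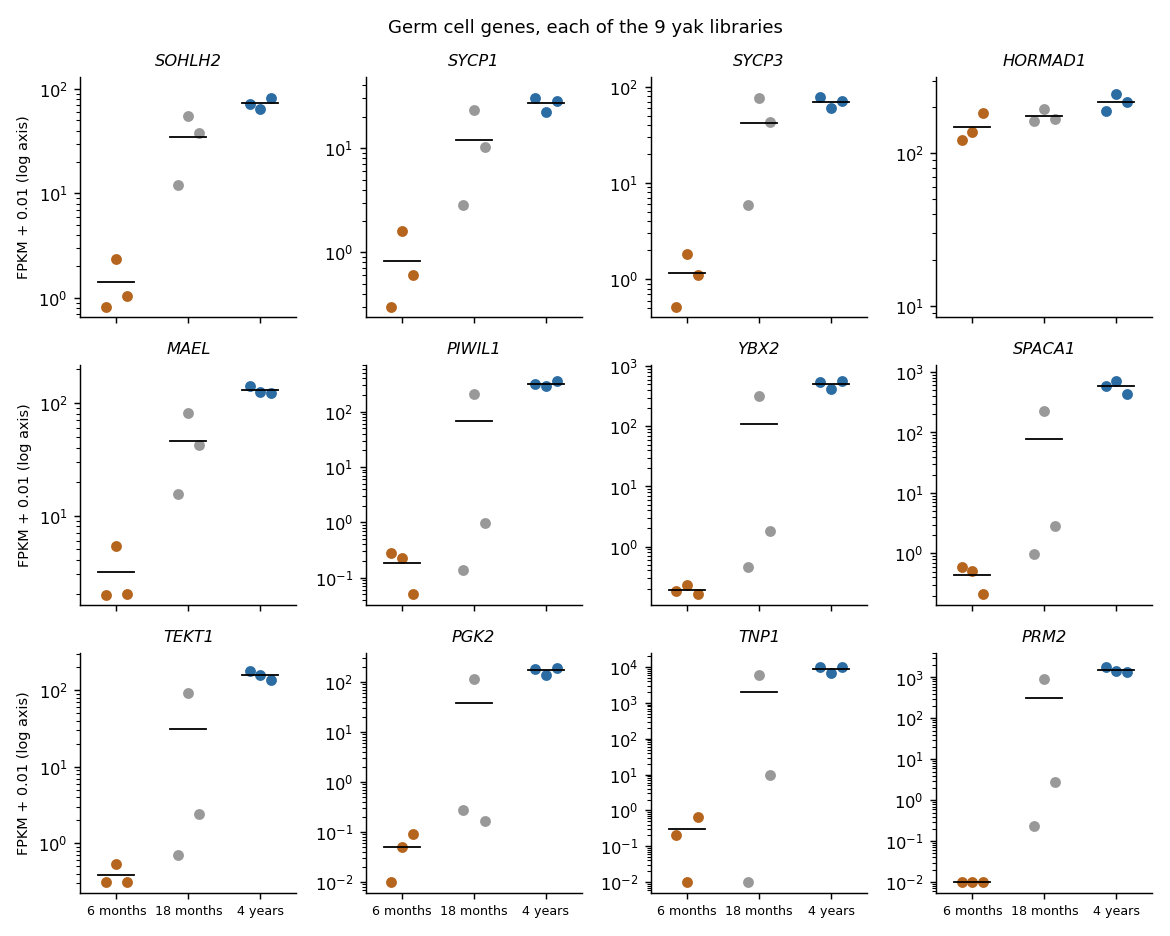
FPKM + 0.01 on a log axis for 12 germ cell genes in each yak library of 6 months, 18 months and 4 years, with bars at the group means. Values of 4 years lie above those of 6 months for all 12 genes, by little for HORMAD1, and 1 library of 18 months lies nearer to the adult than to the young level for the spermatid genes while the other 2 lie nearer to the young ones.

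Genes of round spermatids rose over a wider range. Of 35 tested, 34 were higher and 1 lower, with a median of 9.76, or 8.66 with genes at 0 set to their lower bound. The genes at 0 at 6 months were 7, and they could only be called higher. The share of the list in the counts was 0.0327% to 0.0648% at 6 months and 1.83% to 1.98% at 4 years. CLGN alone held 72.4% to 75.4% of this share at 6 months and 23.5% to 29.0% at 4 years. Without CLGN the members took 0.00903% to 0.0166% of the counts at 6 months and 1.35% to 1.505% at 4 years. SPACA1, a protein of the acrosomal membrane, had FPKM values of 0.59, 0.5 and 0.2 at 6 months and 598, 698 and 435 at 4 years (9.85 ± 0.42), and ACRV1, stored in the acrosome, had 0.06, 0 and 0 at 6 months and 870.3, 818 and 495 at 4 years, a ratio of scaled counts of 30857 (95% counting interval 5538 to 1218791). SUN5, which ties the sperm head to the tail, had no count at 6 months and 115, 156 and 76.2 at 4 years, at least 888-fold higher.

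FAM209, a membrane protein of the acrosome, had the highest fitted change of the list, with 0.07, 0 and 0.06 at 6 months and 1833, 1627 and 1743 at 4 years, a ratio of 29631 (95% counting interval 8203 to 244669). The gamete fusion gene IZUMO1 had no count at 6 months and was at least 322-fold higher, with a mean of 45.3 FPKM at 4 years. Genes for sperm surface proteins, ADAM2 and ADAM32, rose on the log2 scale by 12.84 ± 0.71 and 8.89 ± 0.34, and PDILT, a chaperone that handles them, by 12.05 ± 0.59. HYAL2, a hyaluronidase also made outside the testis, was the 1 member called lower, at 94.7, 61.5 and 50.5 at 6 months and 30.8, 53 and 27.7 at 4 years (-1.47 ± 0.33), and with library totals it was not called (-0.87).

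Elongating spermatid genes had the highest median of the lists. Of 36 tested, 35 were higher, with a median of 11.45, or 8.85 with bounds, and 0.0332% to 0.0422% of the counts at 6 months became 1.11% to 1.32%. No count was found at 6 months for 12 of these members, which could only be called higher. PRM2, a protamine that packs sperm DNA, had no count at 6 months and FPKM values of 1759, 1402 and 1379 at 4 years, at least 3783-fold higher. TNP2, the partner of TNP1, had 0, 0 and 0.21 at 6 months and 2760.2, 1833 and 2256 at 4 years (14.38 ± 0.63). The outer dense fibre genes ODF1 and ODF2 rose on the log2 scale by 12.13 ± 0.42 and 4.90 ± 0.26, and AKAP3 and AKAP4, anchors of the fibrous sheath, by 8.65 ± 0.25 and 6.17 ± 0.46.

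In this list CAPZB, an actin-capping subunit that most cells use, was the gene not called, at 365 ± 41.9 against 1001 ± 31.6 FPKM (0.96 ± 0.16), while CAPZA3, the testis form of the other subunit, had no count at 6 months and was at least 857-fold higher. SPATA20 had the smallest called rise, at 14.1, 15.7 and 20.8 at 6 months and 198, 224 and 207 at 4 years (3.08 ± 0.18).

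Structural genes of the flagellum and cilium rose with the spermatid genes. Of 45 tested axoneme genes, 44 were higher, with a median of 6.24 and a share of 0.00572% to 0.0117% at 6 months and 0.625% to 0.674% at 4 years. DNAH1, an inner-arm dynein heavy chain, had FPKM values of 0.02, 0.05 and 0.07 at 6 months and 19.7, 17.8 and 20.8 at 4 years (8.11 ± 0.32), DNAI1, an outer-arm intermediate chain, had 0.07, 0.01 and 0.12 at 6 months and 44.2, 38 and 51.5 at 4 years (8.81 ± 0.41), and TEKT1, of the tektins that line the microtubule doublets, had 0.3, 0.52 and 0.3 at 6 months and 181, 161 and 137 at 4 years (8.13 ± 0.26). All 3 were near 0 in each young library.

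The dynein heavy chains did not move alike. DNAH8 and DNAH17, the outer-arm chains of sperm, rose on the log2 scale by 10.63 ± 0.36 and 9.65 ± 0.26. DNAH5, DNAH9 and DNAH11, the outer-arm chains of airway cilia, ended lower, at mean FPKM of 0.447, 1.64 and 2.90 at 4 years, while DNAH8 and DNAH17 had 29.97 and 57.5. DNAH5 had 0.11, 0.15 and 0.09 at 6 months and 0.42, 0.44 and 0.48 at 4 years (1.35 ± 0.30), the smallest called rise of the list. TEKT4 had 0.03, 0.06 and 0 at 6 months and 183, 140.1 and 125 at 4 years (11.55 ± 0.42), the largest, and DNAH10 was not called, at 3.74 ± 2.9 against 7.27 ± 1.52 (0.31 ± 0.66).

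Most genes of the piRNA pathway, by which germ cells silence transposons with small RNAs, were higher: 21 of 25 tested, none lower, with a median of 4.81 and a share of 0.0116% to 0.0225% at 6 months and 0.523% to 0.619% at 4 years. PIWIL1, the Argonaute of spermatocytes and round spermatids, had FPKM values of 0.27, 0.22 and 0.04 at 6 months and 316, 295 and 361 at 4 years (10.30 ± 0.51). PIWIL2, which acts from spermatogonia on, had 4.34, 4.75 and 1.69 at 6 months and 35.8, 40.8 and 42 at 4 years (2.88 ± 0.36), and MAEL, a factor of the germ granule, had 1.98, 5.37 and 2.01 at 6 months and 139.8, 124 and 122 at 4 years (4.82 ± 0.37). PIWIL4, the Argonaute of fetal gonocytes, stayed near 1 FPKM at both ages (1.13 ± 0.57 against 1.37 ± 0.242) and was not called (-0.28 ± 0.38).

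The Tudor genes that bind the Argonautes rose on the log2 scale by 5.68 ± 0.45 for TDRD1, 8.40 ± 0.46 for TDRD5 and 6.68 ± 0.37 for TDRD6, and TDRD3, which is widely expressed, was not called (-0.18 ± 0.15). GTSF1L had no count at 6 months and 208, 120.2 and 179.9 at 4 years, at least 610.3-fold higher. PNLDC1, which trims piRNA ends, had the smallest called rise, at 1.51, 2.7 and 2.66 at 6 months and 11.4, 17.8 and 11.9 at 4 years (2.02 ± 0.26), and HENMT1, which methylates those ends, was not called (11.4 ± 2.27 against 17.5 ± 1.01, 0.05 ± 0.17).

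Of 23 tested transcription regulators of late germ cells, 19 were higher and none lower, with a median of 4.33. CREM, an activator of spermatid genes, had FPKM values of 0.54, 1.23 and 2.27 at 6 months and 55.9, 55.1 and 37.1 at 4 years (5.10 ± 0.29). RFX2, which switches on flagellar genes, had 0.16, 0.15 and 0.23 at 6 months and 20.9, 20.2 and 21.6 at 4 years (6.27 ± 0.22), and SOX30 had 0.18, 0.35 and 0.11 at 6 months and 18, 17.3 and 15.7 at 4 years (5.71 ± 0.34). The RFX genes differed in size: RFX4 had 0, 0 and 0.03 at 6 months and 68, 60.8 and 77.4 at 4 years, a ratio of 4568 (95% counting interval 1265 to 37721), and RFX3 had 4.79, 4.78 and 5.64 at 6 months and 19.2, 19.5 and 11.8 at 4 years (1.17 ± 0.22). TAF7L, a germ cell variant of a general transcription factor, was not called, with a mean of 91.5 FPKM in the young testis and 80.4 in the adult (-0.76 ± 0.15).

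Regulators of mRNA storage and translation were mixed. Of 45 tested, 15 were higher, 4 lower and 26 not called, with a median of 0.25, close to that of all genes. YBX2, which coats and stores spermatid mRNAs, had FPKM values of 0.17, 0.22 and 0.15 at 6 months and 545, 414 and 562 at 4 years (10.86 ± 0.29), and its relatives YBX3 and YBX1 had 40.3 ± 7.64 against 434 ± 179 (2.92 ± 0.32) and 191 ± 16.8 against 315 ± 48.5 (0.17 ± 0.16, not called). DAZL, which promotes germ cell translation, had 5.2, 14.6 and 3.66 at 6 months and 217, 206.2 and 252 at 4 years (4.24 ± 0.46), and BOLL, of the same family, rose on the log2 scale by 7.27 ± 0.31.

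For the cap-binding machinery, EIF4G3, the scaffold that spermatocytes need, had 9.86, 14.7 and 15.6 at 6 months and 75.3, 75.7 and 71 at 4 years (1.87 ± 0.16). EIF4E, which binds the cap, had 203 ± 16.3 against 409.7 ± 4.86 (0.45 ± 0.14, not called), and EIF4EBP1, which blocks it, fell from 32.2 ± 5 to 15 ± 6.68 (-1.66 ± 0.33). The cytoplasmic polyadenylation factors split, with CPEB1 at 329 ± 15 against 245 ± 19.8 (-0.72 ± 0.16, not called) and CPEB2, CPEB3 and CPEB4 rising on the log2 scale by 2.16 ± 0.18, 2.47 ± 0.19 and 1.89 ± 0.22. NANOS1, a repressor that works with Pumilio proteins, had 6.29, 2.98 and 4.9 at 6 months and 0.93, 2.58 and 1.95 at 4 years (-1.97 ± 0.47), the largest fall of the list.

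Several enzymes of energy metabolism have a form used by sperm and a form used elsewhere, and the 2 forms went opposite ways in some pairs. Of 42 tested genes of this list, 16 were higher, 10 lower and 16 not called, with a median of 0.07, and with library totals 19 were higher and 6 lower. PGK2, the sperm phosphoglycerate kinase, had FPKM values of 0, 0.04 and 0.08 at 6 months and 183, 139 and 186 at 4 years (11.33 ± 0.38), while PGK1, the form of other cells, had 127, 207 and 216 at 6 months and 47.2, 38.9 and 41.6 at 4 years (-2.65 ± 0.20). PDHA2, the testis subunit of pyruvate dehydrogenase, had 0, 0 and 0.05 at 6 months and 191, 117 and 184 at 4 years, a ratio of 6238 (95% counting interval 1727 to 51512), and PDHA1, its X-linked counterpart, fell from 69.7 ± 18.9 to 24.1 ± 2.58 (-2.08 ± 0.19).

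GAPDHS, the glyceraldehyde phosphate dehydrogenase of the sperm tail, had 0.66, 1.06 and 0.52 at 6 months and 538, 563 and 524 at 4 years (8.91 ± 0.29), whereas the tested locus of GAPDH, the form of other cells, fell from 680.4 ± 128 to 361 ± 25.1 (-1.47 ± 0.18). CYCT, the testis cytochrome c, rose on the log2 scale by 5.26 ± 0.29, and CYCS was not called (115 ± 4 against 103 ± 20.3, -0.73 ± 0.17). COX6B2, a testis subunit of cytochrome oxidase, rose on the log2 scale by 3.97 ± 0.22, beside COX6B1 (370.3 ± 36.8 against 701 ± 17.5, 0.35 ± 0.14, not called). Among glucose transporters, SLC2A3 rose from 8.01 ± 1.37 to 529 ± 136 (5.24 ± 0.29) and SLC2A5, for fructose, by 6.99 ± 0.29, whereas SLC2A1 fell from 46.9 ± 7.41 to 23.2 ± 5.29 (-1.58 ± 0.23). BSG, a partner of lactate transporters, fell from 4211 ± 1553 to 1787 ± 175 (-1.80 ± 0.34), and EMB, its relative, rose from 3.21 ± 0.227 to 45.9 ± 4.63 (3.29 ± 0.16).

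Of 15 tested histone and histone-related genes of the germ line, 8 were higher and 4 lower. H2BC1, the testis H2B, had FPKM values of 2.33, 4.5 and 1.18 at 6 months and 1992, 728 and 1414 at 4 years (8.42 ± 0.59), PHF7, a reader of histones needed for their exchange, had 0.07, 0.11 and 0 at 6 months and 52.2, 40.4 and 46.1 at 4 years (8.86 ± 0.42), and CHD5, a remodeller of spermatid chromatin, rose on the log2 scale by 6.27 ± 0.30. The macroH2A genes MACROH2A1 and MACROH2A2 fell, with log2 fold changes of -1.95 ± 0.19 and -1.68 ± 0.20. The histone copies may share footprints, as said above.

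Sertoli cell genes fell in part and rose in part. Of 24 tested markers, 11 were lower, 4 higher and 9 not called, with a median of -0.91 and a share of 2.21% to 3.14% at 6 months and 1.254% to 1.71% at 4 years. With library totals 8 were lower and 6 higher, with a median of -0.34. CLU alone held 41.6% to 53.7% of the share at 6 months and 27.1% to 34.6% at 4 years. The other members together took 1.23% to 1.46% and 0.873% to 1.12% of the counts. SOX9, the factor that sets Sertoli identity, had FPKM values of 70.1, 117 and 107 at 6 months and 41.4, 42.6 and 29.7 at 4 years (-1.92 ± 0.21), and WT1, another identity factor, had 43.8, 56.6 and 50.7 at 6 months and 43.9, 50 and 38 at 4 years (-0.83 ± 0.15) and was not called. FSHR, the receptor for follicle-stimulating hormone, had 63.1, 39.4 and 40.1 at 6 months and 17.2, 23.9 and 17.5 at 4 years (-1.88 ± 0.27).

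A few Sertoli genes went far up. CLDN11, the claudin of the blood-testis barrier, had 9.21, 18.4 and 4.71 at 6 months and 833, 1317 and 713 at 4 years (5.90 ± 0.51, adjusted p = 1.0e-05), so that all adult libraries lay above all young ones. ESPN, which bundles actin at the junctions between Sertoli cells and spermatids, had 0.33, 0.35 and 0.2 at 6 months and 199, 287 and 176 at 4 years (8.97 ± 0.34), and CST9L, a secreted cystatin, had 179.6, 53.1 and 12.1 at 6 months and 5568, 6589.6 and 4915 at 4 years (5.47 ± 0.91). TESC, the fourth, rose from 7.63 ± 1.85 to 67 ± 7.6 (2.58 ± 0.18). CLU, a secreted chaperone, fell from 10278 ± 3034 to 3523 ± 1028 (-2.14 ± 0.37).

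Markers of immature Sertoli cells tended to be lower: 12 of 22 tested, with 5 higher and a median of -1.21. With library totals 9 were lower and 5 higher, with a median of -0.64. INHA, the alpha subunit of inhibin, had FPKM values of 6628, 5825 and 7288 at 6 months and 494, 703 and 509 at 4 years (-4.11 ± 0.28), the largest fall of both Sertoli lists. Its partners split, INHBA falling from 306 ± 42.5 to 84.6 ± 24.6 (-2.44 ± 0.25) and INHBB having 7.71, 4.69 and 4.77 at 6 months and 16.9, 45 and 16.3 at 4 years (1.59 ± 0.43, adjusted p = 0.0084). The INHBB values of 4 years differed among themselves, and without 4-year replicate 2 the gene was not called (0.95). NCAM1, an adhesion molecule of immature Sertoli cells, fell from 251.1 ± 82.2 to 25.4 ± 5.58 (-3.86 ± 0.33), and KRT18, a keratin lost on maturation, had 9.04, 9.3 and 9.35 at 6 months and 3.2, 4.71 and 3.77 at 4 years (-1.82 ± 0.21).

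FATE1, a gene of the fetal and adult testis, went the other way, from 52.9 ± 16.8 to 1004 ± 231 (3.68 ± 0.29), and SOX10 had 0, 0.02 and 0.2 at 6 months and 2.85, 4.78 and 5.08 at 4 years (5.22 ± 0.81), low values at both ages. NR5A1, which drives genes of both Sertoli and Leydig cells, fell from 129.6 ± 23.2 to 30.5 ± 2.99 (-2.65 ± 0.17), and GATA4, a factor of the same cells, from 84.9 ± 9.95 to 17.2 ± 3.01 (-2.86 ± 0.18). DMRT1, which keeps male identity in Sertoli cells and is also used by spermatogonia, had 63 ± 17.5 against 173 ± 21.1 and was not called (0.90 ± 0.18).

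The cell junction genes of the barrier were mixed, with 5 of 28 tested higher, 16 lower and a median of -1.23. With library totals 10 were lower. CLDN11 had the largest rise, while CLDN1 and CLDN5, other claudins, fell from 25.5 ± 10.8 to 1.51 ± 0.696 (-4.67 ± 0.46) and from 234, 127 and 106 to 7.21, 10.8 and 7.69 (-4.80 ± 0.39). CLDN5 is also a member of the endothelial list below. TJP1, a scaffold of tight junctions, had 8.79, 22.4 and 20.4 at 6 months and 15.9, 16.4 and 15.8 at 4 years (-0.64 ± 0.26), and GJA1, the main gap junction protein of Sertoli cells, had 129, 112 and 178 at 6 months and 97.5, 119 and 96.6 at 4 years (-0.99 ± 0.20), and neither was called. DSG2, a desmosomal cadherin, had 94.5, 55.4 and 62.1 at 6 months and 1.92, 2.25 and 1.98 at 4 years (-5.77 ± 0.29), CXADR, a junction protein, fell from 164 ± 37.2 to 9.65 ± 3.16 (-4.74 ± 0.36) and JUP, a desmosomal plaque protein, from 58.3 ± 13.4 to 11.1 ± 0.729 (-2.95 ± 0.17). NECTIN3, with which spermatids attach to Sertoli cells, rose from 16.6 ± 1.84 to 61.9 ± 5.31 (1.253 ± 0.17).

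Leydig cell genes were mostly lower. Of 26 tested, 20 were lower and 1 higher, with a median of -1.94 and a share of 1.22% to 1.58% at 6 months and 0.557% to 0.815% at 4 years, and with library totals 17 were lower and 3 higher. INSL3 held 55.9% to 62.5% of this share at 6 months and 77.3% to 87.3% at 4 years. The other members together took 0.537% to 0.591% of the counts at 6 months and 0.0900% to 0.129% at 4 years. STAR, which delivers cholesterol to the mitochondrion, had FPKM values of 1339.7, 2182 and 2147 at 6 months and 123, 48.3 and 161 at 4 years (-4.64 ± 0.45, adjusted p = 2.1e-05), and CYP11A1, which cleaves its side chain, fell from 288 ± 61.8 to 18 ± 8.17 (-4.56 ± 0.35). HSD3B1, the next enzyme, fell from 119 ± 41.9 to 27.9 ± 7.3 (-2.65 ± 0.28).

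Of CYP17A1, the enzyme that leads to androgens, 3 loci shared the symbol, all lower, with log2 fold changes of -7.30 ± 0.96, -3.55 ± 0.35 and -3.68 ± 0.47, uncertain where reads can be split between them. LHCGR, the receptor for luteinising hormone, had 64.5, 55.2 and 41.2 at 6 months and 18.6, 9.45 and 19.3 at 4 years (-2.35 ± 0.32). INSL3, with the values given above, had a change of -1.19 ± 0.29 (adjusted p = 0.0054), its highest adult value lay within the young range, and with library totals it was not called (-0.64). PRLR, the prolactin receptor, had no count at 6 months and 0.97, 0.96 and 0.43 at 4 years, at least 8.65-fold higher at a low level.

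Cholesterol, the substrate of steroids, is made by a chain of enzymes under the control of SREBF2, and none of the 27 tested genes of this chain and its control was higher, while 22 were lower, with a median of -2.03. With library totals 18 were lower. SQLE, the squalene epoxidase, had FPKM values of 214, 151 and 98.7 at 6 months and 48.7, 45.3 and 56.6 at 4 years (-2.27 ± 0.31). SCARB1, the receptor for high-density lipoprotein, belongs to the Leydig list and not to this one. It fell from 551 ± 97.3 to 77.7 ± 92.2 (-3.42 ± 0.76), with an SD above the mean at 4 years, so the adult libraries differed widely. SREBF2 itself fell from 66.9 ± 8.66 to 24.9 ± 1.74 (-2.01 ± 0.19).

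**Figure D4:**
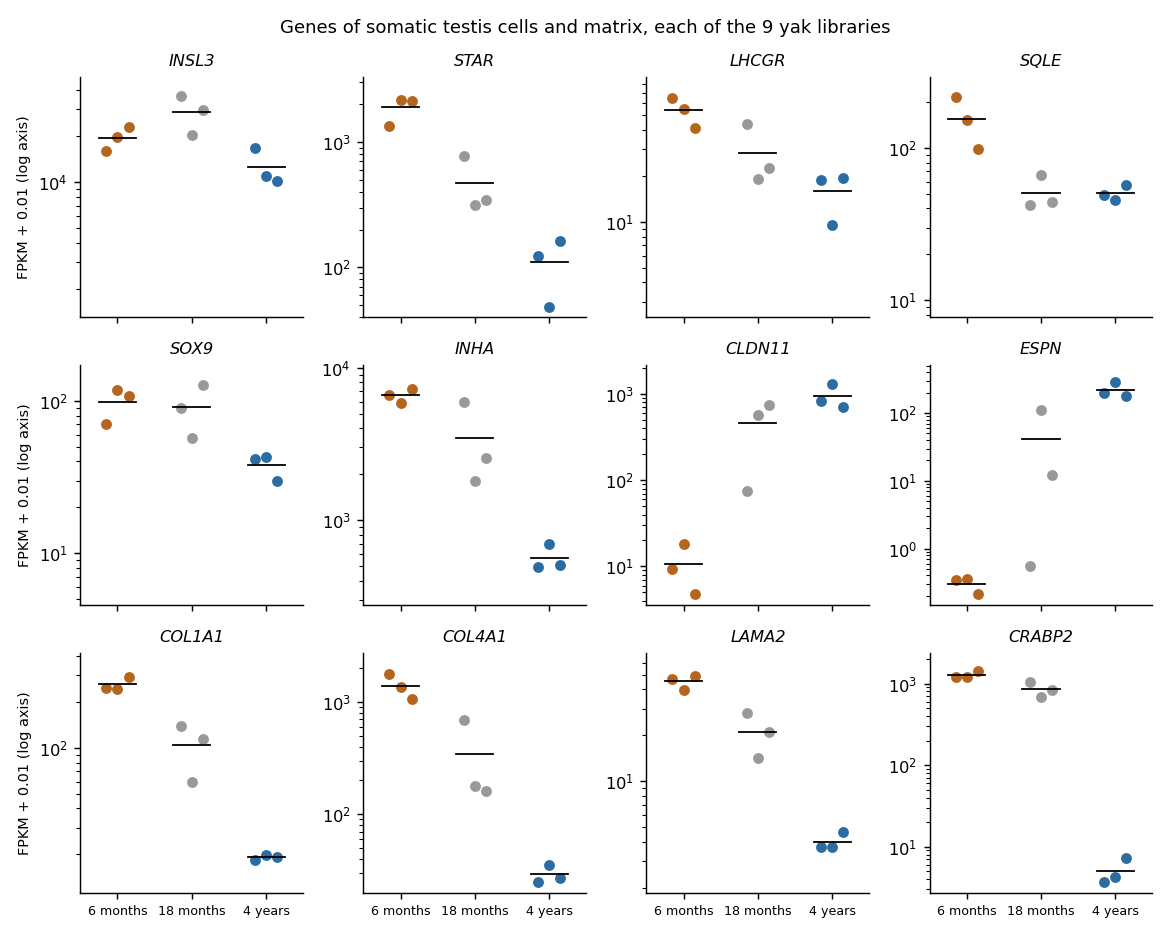
FPKM + 0.01 on a log axis for 12 genes of Leydig cells, cholesterol synthesis, Sertoli cells, matrix and retinoic acid binding in each yak library of 6 months, 18 months and 4 years, with bars at the group means. CLDN11 and ESPN lie higher at 4 years, and COL1A1, COL4A1, LAMA2, CRABP2, STAR and INHA lie lower at 4 years in all 3 libraries.

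Receptors for hormones and growth factors were lower in 16 of 28 tested cases and higher in 4, with a median of -1.45, and with library totals 10 were lower. GHR, the growth hormone receptor, had FPKM values of 5.28, 3.68 and 4.73 at 6 months and 0.82, 0.24 and 0.89 at 4 years (-3.62 ± 0.41), the largest fall. ESR1, an oestrogen receptor, fell from 5.86 ± 1.95 to 1.19 ± 0.122 (-2.85 ± 0.28), and TGFBR2, a receptor of transforming growth factor beta, from 40.6 ± 7.99 to 7.68 ± 0.171 (-2.96 ± 0.15). NR3C2, the mineralocorticoid receptor, rose from 1.45 ± 0.591 to 9.45 ± 1.5 (2.14 ± 0.27).

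In the retinoic acid pathway, which starts meiosis in the germ line, 3 of 20 tested genes were higher, 8 lower and 9 not called. The list median was -0.30 and changed sign with library totals (0.26), where 6 genes were higher and 7 lower. ALDH1A2, an enzyme that makes retinoic acid, had FPKM values of 57.2, 67.5 and 81.3 at 6 months and 79.2, 76.1 and 117 at 4 years (-0.16 ± 0.19, not called), while ALDH1A3 fell from 136 ± 35.8 to 32.8 ± 12.7 (-2.64 ± 0.36). STRA6, which takes up retinol, and RBP4, which carries it in blood, fell from 116 ± 49.7 to 12.3 ± 6.99 (-3.75 ± 0.54) and from 361 ± 265 to 44 ± 13.3 (-3.67 ± 0.56). CRABP1, the relative of CRABP2, rose from 17.9 ± 7.27 to 111 ± 20.2 (2.08 ± 0.26), the opposite of CRABP2. Both loci of LRAT, which stores retinol as ester, were higher at low levels, and REC8, a target gene in germ cells, had 0.15, 0.5 and 0.11 at 6 months and 4.57, 6.55 and 4.72 at 4 years (3.76 ± 0.51).

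Genes of the extracellular matrix were mostly lower. Of 50 tested fibrillar matrix genes, 38 were lower, 5 higher and 7 not called, with a median of -2.70, and their share of the counts was 5.87% to 8.69% at 6 months and 0.708% to 0.863% at 4 years. SPARC alone held 66.2% to 74.4% of this share at 6 months and 50.0% to 55.2% at 4 years, and the other members together took 1.87% to 2.22% and 0.354% to 0.403% of the counts. COL1A1 and COL1A2, the chains of collagen I, had FPKM values of 245, 245 and 293 at 6 months and 18.4, 20 and 19.3 at 4 years (-4.34 ± 0.19, adjusted p = 1.9e-07) and 361, 373 and 385 at 6 months and 25.6, 28.1 and 28.4 at 4 years (-4.34 ± 0.19), and COL3A1, of collagen III, had 299, 303 and 328 at 6 months and 21, 17.9 and 18.6 at 4 years (-4.54 ± 0.21). In all 3 chains each adult value lay far under each young one. LUM, a proteoglycan that spaces collagen fibrils, had 654, 425 and 437 at 6 months and 2.55, 2.38 and 10.9 at 4 years (-7.19 ± 0.66), the largest fall of the list, and DCN, of the same family, fell from 1226 ± 66.5 to 49.8 ± 4.19 (-5.19 ± 0.20).

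Among the other members of the list, PLOD2, a lysyl hydroxylase, fell from 54.3 ± 10.7 to 0.957 ± 0.318 (-6.45 ± 0.33), P4HA2, a prolyl hydroxylase, from 279.5 ± 44.3 to 31.4 ± 7.91 (-3.74 ± 0.28) and SERPINH1, the collagen chaperone, from 2690.1 ± 349.9 to 492 ± 142 (-3.04 ± 0.30). The 5 genes called higher started from low levels: COL8A2 had 0, 0.05 and 0.05 at 6 months and 1.2, 1.98 and 1.8 at 4 years (5.03 ± 0.64), EFEMP1 0.357 ± 0.24 against 8.95 ± 0.566 (4.06 ± 0.46), COL2A1 0.173 ± 0.0802 against 2.59 ± 0.565 (3.30 ± 0.37), MFAP5 0.65 ± 0.305 against 5.33 ± 1.96 (2.49 ± 0.49) and COL12A1 2.16 ± 1.19 against 18.7 ± 8.21 (2.32 ± 0.46). FBN2, a fibrillin, was not called, at 15 ± 2.12 against 18.9 ± 3.52 (-0.92 ± 0.20), while FBN1 fell from 68.5 ± 5.74 to 4.92 ± 1.04 (-4.38 ± 0.23).

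Basement membrane genes fell further than the fibrillar ones by the median, at -3.27, with 20 of 25 tested lower and 3 higher. Their share of the counts was 1.83% to 2.84% at 6 months and 0.146% to 0.177% at 4 years. COL4A1, a chain of collagen IV, had FPKM values of 1761, 1346 and 1062 at 6 months and 24.9, 35.5 and 27.4 at 4 years (-6.32 ± 0.35), and all 6 chains of collagen IV fell, from -3.93 ± 0.39 for COL4A4 to -6.73 ± 0.38 for COL4A6, which had 129.7, 74.7 and 70.5 at 6 months and 1.15, 1.55 and 1.17 at 4 years. LAMA1 and LAMA2, laminin alpha chains, had 354, 250.0 and 199 at 6 months and 17.9, 29.5 and 18.6 at 4 years (-4.001 ± 0.36) and 46.6, 39.9 and 49 at 6 months and 3.69, 3.72 and 4.63 at 4 years (-4.07 ± 0.20).

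Not all laminins moved this way. LAMA3, a laminin alpha chain, had 0.09, 0.11 and 0.1 at 6 months and 4, 5.63 and 6.72 at 4 years (4.97 ± 0.24), a rise from near 0, and LAMB3, a beta chain, fell from 1.04 ± 0.33 to 0.21 ± 0.137 (-2.82 ± 0.56). HSPG2, the perlecan core, was not called (2.43 ± 1.7 against 1.75 ± 0.544, -0.32 ± 0.49).

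**Figure D5:**
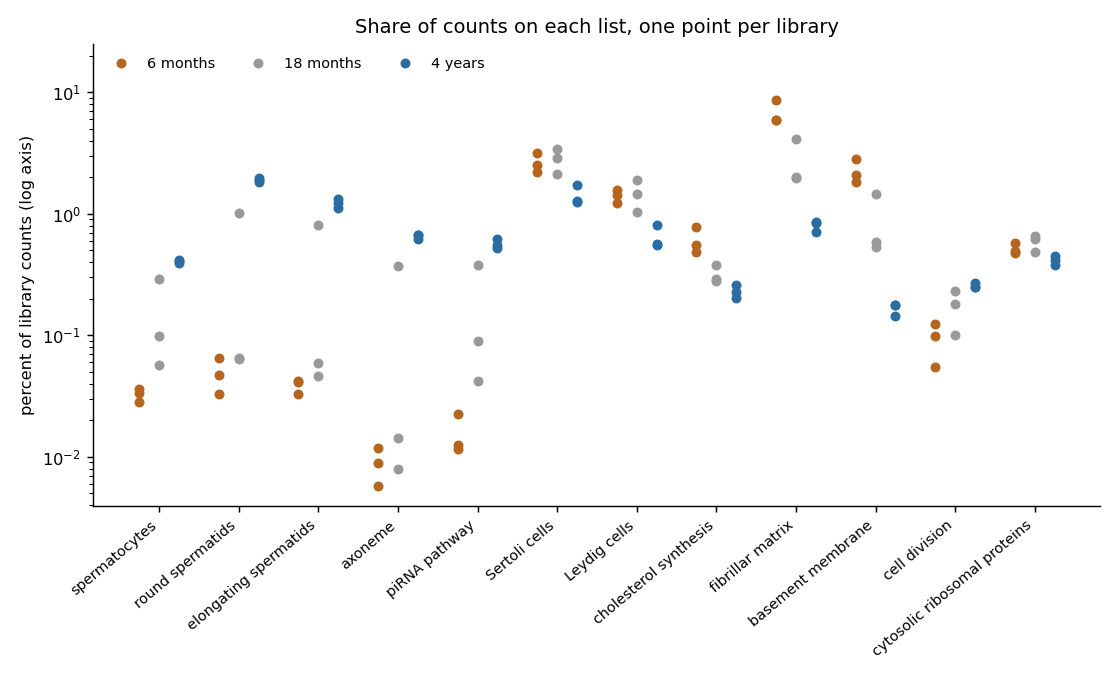
Percent of the counts of each yak library that fell on the found members of each list, on a log axis, for 6 months, 18 months and 4 years. Spermatocyte, spermatid, axoneme and piRNA lists lie higher at 4 years in all 3 libraries, and the 2 matrix lists and the Leydig list lie lower.

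Markers of peritubular myoid cells were lower in 15 of 23 tested cases, with 1 higher, 7 not called and a median of -1.31, and with library totals 10 were lower. The most typical contractile genes were not called. ACTA2, smooth muscle actin, had FPKM values of 32, 49.4 and 46.9 at 6 months and 93.9, 105.3 and 115 at 4 years (0.73 ± 0.16), MYH11, smooth muscle myosin, had 4.8, 5.86 and 3.5 at 6 months and 14.2, 14 and 12.3 at 4 years (0.94 ± 0.20), and TAGLN, transgelin, had 42, 77.6 and 68 at 6 months and 75.1, 59.4 and 49.5 at 4 years (-0.57 ± 0.23). With library totals ACTA2 and MYH11 were called higher, at 1.29 and 1.52. DES, desmin, fell from 40.2 ± 10.6 to 6.66 ± 1.4 (-3.15 ± 0.22), and MYOCD, a coactivator of smooth muscle genes, had 0.07, 0.05 and 0.06 at 6 months and 0.22, 0.2 and 0.26 at 4 years (1.34 ± 0.53), low values whose call was lost when some single libraries were left out.

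Endothelial markers were at low levels and mostly lower, in 15 of 23 tested cases, with 1 higher (3 with library totals) and a median of -1.95. Their summed share was 0.036% to 0.0493% at 6 months and 0.0156% to 0.0188% at 4 years. CLDN5, also in the barrier list, held 19.4% to 32.5% of this share at 6 months and 2.73% to 3.94% at 4 years. The other members together took 0.0273% to 0.0333% and 0.0151% to 0.0180% of the counts. PECAM1 and CDH5, adhesion proteins of the vessel wall, had FPKM values of 3.86, 2.98 and 4.13 at 6 months and 1.2, 1.02 and 1.34 at 4 years (-2.19 ± 0.27) and 15, 8.85 and 13.1 at 6 months and 2.86, 3.39 and 2.81 at 4 years (-2.61 ± 0.26), while VWF, von Willebrand factor, had 2.12, 1.82 and 2.51 at 6 months and 6.4, 6.59 and 4.36 at 4 years (0.85 ± 0.21) and was not called, except with library totals (1.43). PROX1, a factor of lymphatic endothelium, had 1.7, 2.47 and 1.78 at 6 months and 14, 15.3 and 12.6 at 4 years (2.23 ± 0.19), whereas LYVE1, also lymphatic, fell from 4.8 ± 0.649 to 0.563 ± 0.166 (-3.65 ± 0.42).

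Of 21 tested macrophage markers, 14 were lower and 2 higher, with a median of -1.69 and a summed share of 0.108% to 0.212% at 6 months and 0.0551% to 0.0912% at 4 years, ranges that do not overlap. CD74 alone held 48.3% to 60.1% of this share at 6 months and 38.8% to 41.5% at 4 years. The other members together took 0.0556% to 0.0847% and 0.0338% to 0.0534% of the counts, ranges that lie close together. With library totals 11 were lower and 2 higher. CSF1R, the growth factor receptor of macrophages, had FPKM values of 29.1, 28.8 and 28.6 at 6 months and 13, 15.7 and 11.3 at 4 years (-1.69 ± 0.17), and ITGAX, an integrin, had 1.56, 2.06 and 3.06 at 6 months and 0.27, 0.38 and 0.32 at 4 years (-3.33 ± 0.32). CD163 and CD68, scavenger and lysosomal proteins, had 15.1, 8.85 and 9.65 at 6 months and 13.6, 26.3 and 17.1 at 4 years (0.16 ± 0.31) and 11.2, 8.04 and 10.3 at 6 months and 9.32, 10.4 and 6.62 at 4 years (-0.75 ± 0.26) and were not called. AIF1, a calcium-binding protein of macrophages, had 17, 37.8 and 41.4 at 6 months and 219.8, 175 and 187 at 4 years (2.05 ± 0.27).

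Lymphocyte and mast cell markers had small counts, with 8 of 11 tested lower and 2 higher. Their summed share was 0.00375% to 0.012% at 6 months and 0.00313% to 0.00355% at 4 years, and 1 young library lay close to the adult range. CD3D and CD3G, subunits of the T cell receptor complex, fell from 41.2 ± 22.3 to 7.36 ± 2.63 (-3.01 ± 0.44) and from 44.3 ± 25.1 to 7.17 ± 1.63 (-3.16 ± 0.41). MS4A1, the defining B cell marker, had 0.29, 0.46 and 0.28 at 6 months and 0.3, 0.24 and 0.07 at 4 years and too few counts to test. Mast cell genes disagreed, with TPSB2 at 1.18, 1 and 1.53 at 6 months and 0.12, 0 and 0 at 4 years, a ratio of 37.9 (95% counting interval 10.5 to 313) in favour of 6 months, and CPA3 at 0.06, 0.13 and 0.03 at 6 months and 0.61, 0.57 and 2.2 at 4 years (3.32 ± 0.80).

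Blood and duct markers were mostly at low levels at both ages. ALAS2, the erythroid enzyme of haem synthesis, was at 0 in all 6 libraries, which by 3 counts allows up to 0.116, 0.0807 and 0.0977 CPM (counts per library total) at 6 months and 0.169, 0.168 and 0.184 at 4 years. HBA, a haemoglobin subunit, had FPKM values of 0.73, 1.46 and 0.31 at 6 months and 7.23, 6.38 and 7.16 at 4 years (2.48 ± 0.54), HBQ1, another globin, was not called (5.17 ± 0.74 against 10.6 ± 1.91, 0.46 ± 0.30), and GYPC, which other cells make too, had 14.6, 15.1 and 17.3 at 6 months and 10.9, 7.4 and 13.4 at 4 years (-1.13 ± 0.26). Of the markers of the rete testis and efferent ducts, SLC9A3 had 0, 0.01 and 0 at 6 months and 1.02, 1.06 and 1.81 at 4 years, a ratio of 207 (95% counting interval 37.2 to 8192), LRP2 0.04, 0.07 and 0.08 at 6 months and 0.31, 0.36 and 0.62 at 4 years (2.08 ± 0.39), ADGRG2 0.81, 0.51 and 0.26 at 6 months and 2.36, 3.42 and 3.6 at 4 years (1.99 ± 0.44), PAX8 2.37, 2.59 and 1.57 at 6 months and 1.18, 1.56 and 1.42 at 4 years (-1.28 ± 0.38) and EMX2 3.43, 5.44 and 6.17 at 6 months and 1.07, 1.06 and 0.78 at 4 years (-2.91 ± 0.36). The calls of GYPC and PAX8 were lost with library totals (-0.56 and -0.70). The duct list held 4 higher and 2 lower of 6 tested, or 4 and 1 with library totals, with a summed share of 0.000856% to 0.00102% at 6 months and 0.00179% to 0.00269% at 4 years. The part of these other cells in the results was not tested.

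Imprinted and fetal growth genes were mostly lower, in 15 of 25 tested cases with 6 higher and a median of -1.84. MAGEL2, an imprinted gene of protein trafficking, had FPKM values of 4.28, 4.53 and 4.2 at 6 months and 0.02, 0.04 and 0.18 at 4 years (-6.35 ± 0.51), the largest fall. PLAGL1 and PEG3, imprinted zinc finger genes, fell from 13 ± 2.72 to 0.683 ± 0.408 (-4.79 ± 0.41) and from 31.8 ± 8.97 to 5.61 ± 0.611 (-3.04 ± 0.21), and IGFBP3, which binds insulin-like growth factors, from 243 ± 44.2 to 7.04 ± 3.17 (-5.66 ± 0.34). DLK1 had 12.5, 9.65 and 5.76 at 6 months and 4.18, 9.72 and 6.17 at 4 years (-1.08 ± 0.38), a call that was lost with library totals (-0.47). LIN28B, a fetal RNA-binding protein, had 0.25, 0.74 and 0.13 at 6 months and 4.21, 5.74 and 5.16 at 4 years (3.13 ± 0.58), IGF2BP1 rose on the log2 scale by 2.85 ± 0.38 and HMGA1, a chromatin protein of dividing and germ cells, rose from 17.3 ± 5.73 to 192 ± 39.8 (2.89 ± 0.24).

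Genes of cell division were mostly higher or not called. Of 38 tested, 20 were higher, 4 lower and 14 not called, with a median of 1.16, and with library totals 25 were higher and 1 lower. TOP2A, which untangles chromosomes, had FPKM values of 2.59, 8.09 and 12.1 at 6 months and 36.6, 35.6 and 44.3 at 4 years (1.82 ± 0.41), and BUB1, a spindle checkpoint kinase, had 1.47, 2.76 and 4.35 at 6 months and 77.3, 65.8 and 74.4 at 4 years (4.14 ± 0.32), the largest rise. CDC20, PLK1 and AURKA, which drive mitosis, rose on the log2 scale by 3.14 ± 0.42, 3.32 ± 0.32 and 2.81 ± 0.36. PCNA, the replication clamp, had 109, 195 and 240.2 at 6 months and 232, 189 and 263 at 4 years (-0.21 ± 0.24, not called), and of the replicative helicase genes tested MCM6 rose on the log2 scale by 1.11 ± 0.24 while MCM2, MCM3, MCM5 and MCM7 were not called (0.68, -0.15, 0.56 and 0.04). The D cyclins CCND2 and CCND3 fell, the second from 31.6, 30.2 and 37.2 to 9.67, 10.5 and 10.8 (-2.06 ± 0.17).

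Ribosomal protein genes, read as a group that most cells share, were lower in 14 of 27 tested cases with 1 higher and a median of -1.07, and with library totals 4 were lower. Only genes that carry a symbol were read, so the list is a part of the ribosomal proteins and leaves out loci without one. RPS4X had FPKM values of 288, 222 and 207 at 6 months and 47.5, 41 and 33.3 at 4 years (-3.14 ± 0.24), the largest fall, and RPL26 had 22.5, 22.8 and 22.3 at 6 months and 124, 91.8 and 76.1 at 4 years (1.55 ± 0.21). RPL10L, the testis copy of RPL10, fell from 318 ± 34.4 to 65.7 ± 5.02 (-2.86 ± 0.18), though these genes have many near-identical copies among which short reads can be split.

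Beside these ages, the libraries of 18 months did not form 1 group. Genes called higher at 4 years took 4.87%, 22.6% and 8.68% of the counts in replicates 1, 2 and 3, and genes called lower took 54.1%, 29.8% and 39.5%, against 33.4% to 34.7% and 18.0% to 19.2% at 4 years. TNP1 had FPKM values of 0, 6016 and 9.72 and PRM2 of 0.23, 932 and 2.77, so that replicate 2 alone read both spermatid genes at high levels, though below every library of 4 years. Round spermatid genes took 0.0651%, 1.01% and 0.0642% of the counts in the same order, axoneme genes 0.00795%, 0.372% and 0.0143% and piRNA genes 0.0423%, 0.382% and 0.0893%. At 4 years these lists took 1.83% to 1.98%, 0.625% to 0.674% and 0.523% to 0.619%, all above replicate 2. The 18-month libraries entered no test here except 1 alternative fit.

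Among genes of earlier germ cells, SYCP3, MAEL and SOHLH2 were lowest in replicate 1 of 18 months. SYCP3 had 5.89, 76.3 and 43.3, MAEL 15.5, 80.6 and 41.9 and SOHLH2 12, 55.2 and 37.6 FPKM. Spermatogonial genes took 0.0951%, 0.123% and 0.201% of the counts, all within or above the range at 4 years. Among somatic genes, CLDN11 had 75.2, 574 and 749.6, ESPN 0.54, 112 and 12, STAR 768, 312 and 344, INHA 5964, 1807 and 2568, COL1A1 138, 59.3 and 114 and COL4A1 688, 180.3 and 163. Fibrillar matrix genes took 4.1%, 1.98% and 2% and basement membrane genes 1.45%, 0.529% and 0.588%, values between the young and adult ranges in all 3 libraries.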

How the data were processed

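Ribosome-protected fragments of whole testis were sequenced in 3 yaks of 6 months and 3 of 4 years. The deposited counts were expected counts of RSEM per gene, whole numbers in the files, and the authors also deposited FPKM, normalised per kilobase and library total. Per the methods of the study, stated for the 4-year groups, reads were trimmed with fastp, ribosomal reads were removed with Bowtie2 and the rest aligned to the yak genome BosGru 3.0 with STAR. The submitters' processing notes name Bowtie2 and RSEM. The columns of log2 fold changes, p-values and false discovery rates that the authors computed between groups were not used, nor were the tables of group means.

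The tables of 6 against 18 months and 18 months against 4 years were joined on gene identifier, 20965 genes. Counts of the 18-month and 4-year libraries were the same for every gene in each table that held them. The 6 libraries were fitted with edgeR 4.0.16 in R 4.3.3 (filterByExpr, which left out 4832 genes, TMM factors, quasi-likelihood test, Benjamini-Hochberg adjustment over 16133 genes). The SE of a log2 fold change is approximate, from the change and its F statistic. A symbol was held by 13662 genes, 98 list members were named from the description of the protein, and 26 symbols held several loci. PRM1, AMH, LDHC, STRA8, MKI67, IGF2 and H19 were not analysed here. The 18-month libraries are given as levels.

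The members and lists were chosen with earlier results of these data known. Genes named are the 5 largest rises and falls among DTGs with a symbol in the files, above-median abundance and no overlap, among DTGs with a symbol in the files (not those named from a description) the 10 higher of the highest FPKM at 4 years and the 10 lower of the highest FPKM at 6 months, the lead genes of each list, and its largest and smallest called changes. Other list members were added as examples after their values were seen. Alternatives were DESeq2 1.42.0, limma 3.58.1 on log2(FPKM + 1) and log2(FPKM + 0.1), other scalings, no filter, all 12 libraries, glmTreat, a replicate block and leaving out each library, and, chosen after seeing the data, every library thinned to 16304058 counts. The edgeR script was tested on simulated data in which few genes changed, unlike here, so that test does not bear on the choice of scaling. A few genes of the lists are counted but not reported here by name.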

Additional observations from a re-analysis of the deposited data

How the results depend on the processing

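The number of genes lower at 4 years depended on the scaling. It was 3985 with TMM factors, 2493 with library totals alone, and 2051 and 2474 with limma on log2(FPKM + 1) and log2(FPKM + 0.1), which are also per library total. The higher genes were 6596, 5652 and 6617 under these 3 settings, or 72.6%, 73.4% and 72.8% of the calls in place of 55.7%. DESeq2 gave 5181 higher and 3726 lower, RLE factors 5207 and 3741, upper quartile factors 4811 and 4243, no filter 5338 and 4193, all 12 libraries 5002 and 3929, glmTreat 4096 and 2909, and thinning to equal totals, chosen after seeing the data, 5009 and 3776. Leaving out each library in turn gave 4818 to 5125 higher and 3903 to 4000 lower. No gene was called in opposite directions by the main setting and any of these. Replicates of equal number did not deviate together (correlations of -0.11, -0.01 and -0.06). This gave no sign of pairing by number, but with 3 libraries of each age it cannot exclude a shared batch. A fit with the replicate number as a block gave 4851 higher and 3875 lower genes.

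Of 139 named genes tested, 126 kept their side of the threshold with library totals, 9 lost their call and 4 gained it. The calls lost included those of CST3, HSP90B1, PPIB, INSL3, PAX8, DLK1, HYAL2 and GYPC. The list median changed sign for the retinoic acid genes with library totals and for the energy isozymes under several settings. Depth limits genes near 0: 3 counts equal 0.0807 to 0.116 CPM at 6 months and 0.168 to 0.184 at 4 years, and thinning to equal totals, above, is the setting that bears on unequal depth. The way of collection cannot be told apart from age if it differed.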

Other observations

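Some gene families outside the lists were counted after their values were seen, so their counts are a description, to be read against the 31.0% of all tested genes that were higher and the 24.7% that were lower. Beta-defensins, small antimicrobial proteins of which some coat sperm, had 38 loci, of which 30 had too few counts to be tested. The 8 that were tested had low levels at 6 months and can have passed the filter through the age at which they were high, and 7 of these were called higher. The summed share of all 38 loci was 0.000179% to 0.000490% at 6 months and 0.120% to 0.202% at 4 years. DEFB123 had FPKM values of 1.51, 2.3 and 1.52 at 6 months and 251.4, 291 and 110.0 at 4 years (log2 fold change 6.34 ± 0.44, SE). Cystatins, inhibitors of cysteine proteases, split evenly, with 4 loci higher and 4 lower of 8 tested. CST8 had no count at 6 months and 209, 175 and 151 at 4 years, at least 554-fold higher, and CST7, a cystatin of leukocytes, went from 6.3, 13.6 and 18.5 to 3.73, 1.68 and 0.53 (-3.20 ± 0.62).

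Kinesins, motors of spindles and flagella, were higher in 23 of 37 tested cases and lower in 5. KIF17 had FPKM values of 0.31, 0.54 and 0.63 at 6 months and 97.4, 86.6 and 129 at 4 years (7.15 ± 0.27), and KIF2C, which shortens microtubules in division, 0.46, 2.46 and 2.63 at 6 months and 72.7, 72.6 and 83.8 at 4 years (4.76 ± 0.47). Of 44 proteasome subunits and activators tested, 3 were higher and 16 lower: PSMA8, the germ cell form of a core subunit, went from 1.09, 1.65 and 0.58 to 96.5, 87 and 106 (5.85 ± 0.32), PSME4, the activator that removes acetylated histones, from 8.8, 9.52 and 8.67 to 80, 84.5 and 89.4 (2.66 ± 0.15), and PSMB8, a subunit of the immunoproteasome, from 41.9, 82.6 and 78.8 to 21, 22.3 and 23 (-2.16 ± 0.21). Glutathione transferases were lower in 8 of 14 tested cases and higher in 2, GSTO2 and GSTT4, at 0.317 ± 0.126 against 58.4 ± 11 (6.99 ± 0.33) and 2.35 ± 0.686 against 181 ± 13.8 FPKM (5.69 ± 0.27), as means ± SD of 6 months against 4 years. Serpins were lower in 7 and higher in 4 of 17 tested cases, with SERPINA5, an inhibitor of proteases in semen, at 3547, 2975 and 2362 at 6 months and 972, 1389 and 916 at 4 years (-2.03 ± 0.29).

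Counts per FPKM of a gene, relative to the median gene of its library, move with the effective length that the counting tool gave it. Of 8496 genes with at least 100 counts in each of the 6 libraries, 720 had longer and 818 shorter relative lengths at 4 years without overlap between the ages, but only 12 and 17 of these differed by over 1.5-fold, and 90.8% of the genes lay within 5%. The named genes with the largest rises were ABCC5 (3.62-fold), ATXN7L1 (2.21), ANAPC1 (1.95), TBRG1 (1.62) and PLEKHA8 (1.60). Those with the largest falls from 6 months to 4 years were PRUNE2 (3.07-fold), PSD3 (2.32), CEP112 (2.14), IQSEC2 (2.01) and RHOBTB3 (1.80). For ABCC5 the scaled counts had a log2 fold change of 0.84, while the mean FPKM went from 18.9 to 13.8, so that its direction differs between counts and FPKM. The same held for PRUNE2, a gene called lower (-1.78, while the mean FPKM went from 2.82 to 3.84), and for IQSEC2, which was not called (-0.88, 3.63 to 6.06).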
